A study of Drosophila melanogaster with 12 samples.

Results

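Juvenile hormone pathway genes were followed in adult fly heads that lacked Nab2, a polyadenosine RNA-binding protein. The 8 genes, chosen by name, were Met, gce, Kr-h1, jhamt, Jhe, Jheh1, Jheh2 and Jheh3, out of 17737 genes counted in each library. All 8 passed the filter on low counts that left 11223 genes for testing. Heads came from newly eclosed Drosophila melanogaster adults, 60 heads to a sample, and total RNA was depleted of ribosomal RNA before stranded paired-end sequencing. The 12 libraries came from females and males of each genotype at Nab2, wild type or null, with 3 libraries for each of the 4 combinations. The null allele was Nab2ex3. The wild-type flies were Nab2pex41, a control allele that the labels call wild type. The labels name no driver, transgene or drug, and they give no other difference between the groups.

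Juvenile hormone is a sesquiterpenoid made by the corpus allatum, an endocrine gland. It holds back metamorphosis in the larva, and in the young adult it promotes reproductive maturation. The enzyme encoded by jhamt methylates the acid precursor late in synthesis, and the hormone then binds Met and gce, paralogous bHLH-PAS transcription factors that switch on Kr-h1, a zinc finger transcription factor. Jhe encodes an esterase and Jheh1, Jheh2 and Jheh3 encode epoxide hydrolases, the enzyme classes that break the hormone down.

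The members lie on 3 chromosome arms of assembly BDGP6.54. Met spans X:11616124-11621280 and gce X:15297766-15319074, both on the plus strand. Kr-h1 spans 2L:6082603-6096498 and jhamt 2L:16365903-16367039, again on the plus strand. Jhe lies on 2R, 643 bp from its tandem relative Jhedup. The Jheh genes stand in a row on the minus strand of 2R, with 679 bp between Jheh1 and Jheh2 and 2129 bp between Jheh2 and Jheh3. Antisense RNA genes overlap gce and the Jheh row, and Kr-h1 overlaps CG45075 on its own strand. The antisense genes at gce had 7 to 62 counts per library, against at least 2045 for gce, and CG45075 was listed at 0 in all 12 libraries. CR46485, the antisense gene that overlaps Jheh1, Jheh2 and Jheh3, was not listed among the counted genes, so it has no count here. Whether the counting used strand is not given in the sources used here, so reads of a gene and its antisense partner cannot be told apart. The deposit of null male library 3, and of no other, is marked with a read orientation. There the antisense genes CR44429 and CR44961 at gce had 1.08 and 1.28 CPM, against 0.769 to 1.29 and 1.01 to 1.80 CPM in the other null male libraries.

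Library totals ran from 23648813 to 30751922 counts assigned to genes. Levels are given as CPM, counts on a common library size set by TMM factors, as mean ± SD of 3 libraries. Where the libraries of compared groups are said not to overlap, this is a description, and its share over all genes was not counted. The members ranged from 104 counts (jhamt, null male library 1) to 4624 counts (Jheh2, null female library 1). Nab2 had 1362 to 1946 counts in wild-type libraries and 11 to 82 in null libraries, as their labels state. The 82 counts were in null male library 1 (3.21 CPM), against 0.607 and 0.456 CPM in null male libraries 2 and 3. Null female library 1 differed most from its replicates, with a chi-square per degree of freedom of 134 and 111 against them, where the other replicate pairs gave 6.21 to 40.5. Calls of the 8 genes that rest on this library are given with and without it. Wild-type female library 3 held more of the male roX RNAs (30.2 CPM) than the other wild-type female libraries (1.73 and 4.06), at 1.2% of the male level for roX1. Head markers were present in every library, with 32072 to 53400 CPM summed over photoreceptor markers and 958 to 2045 CPM over neuron markers. Ovary markers summed to at most 0.267 CPM and testis markers to at most 4.54 CPM.

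In null females, 5 of the 8 genes passed the test at an adjusted p under 0.05: jhamt fell and Jhe, Jheh1, Jheh2 and Jheh3 rose. Over all genes tested, 31.8% were called in this comparison, 18.2% as higher and 13.6% as lower. In null males, 2 of the 8 passed, jhamt as lower and Kr-h1 as higher, against 9.93% of all genes tested, 4.89% higher and 5.03% lower. The receptors Met and gce were called in neither sex. The adjusted p of Met was 0.266 in females and 0.934 in males, and that of gce 0.327 and 0.893, by edgeR's quasi-likelihood test with Benjamini-Hochberg adjustment. The median log2 change of the 8 genes was 0.33 in females and 0.14 in males, beside 0.01 and -0.00 over all genes tested. With members that moved in opposite directions, these medians describe no common shift.

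**Figure D1:**
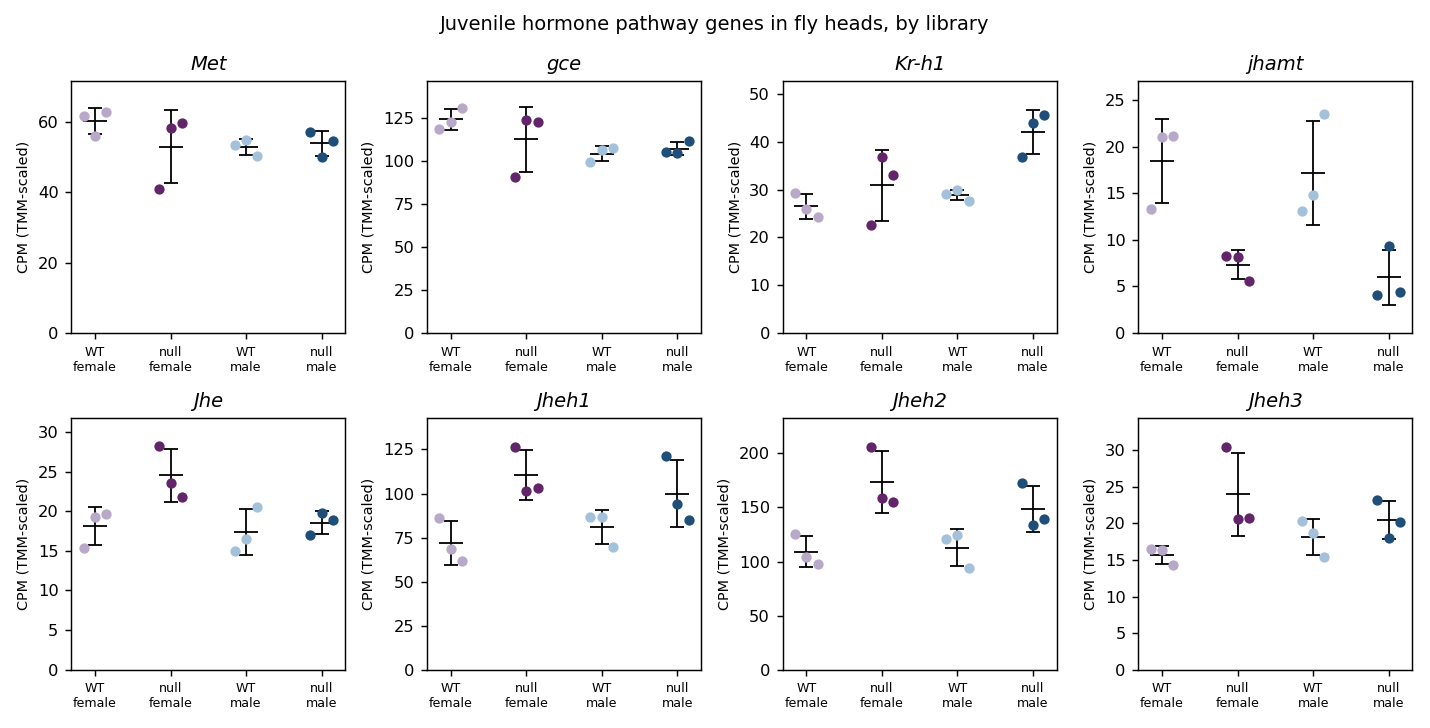
CPM (vertical axis, TMM-scaled, from 0) of each juvenile hormone gene in the 4 groups (horizontal axis). Points are libraries, the wide bar is the mean of 3 libraries and the whiskers are 1 SD. The jhamt points of both null groups (4.08 to 9.39 CPM) lie below all wild-type points (13.1 to 23.6 CPM).

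The synthesis gene jhamt was lower in null heads of both sexes. In wild-type females the libraries held 13.3, 21.04 and 21.15 CPM, and in null females 8.29, 8.17 and 5.58 CPM. Wild-type males had 13.1, 14.8 and 23.6 CPM, and null males 4.08, 9.39 and 4.43 CPM. Every null library lay below every wild-type library, in either sex, and the replicates of a group spread widely. Null females had 0.397 times the wild-type level (log2 change -1.33, SE 0.32, edgeR adjusted p = 0.0103). Null males had 0.347 times the wild-type level (log2 change -1.53, SE 0.33, edgeR adjusted p = 0.0124). The effects in females and males differed by 0.19 on the log2 scale (SE 0.46, adjusted p = 0.846), so a difference between the sexes was not detected within this error. In females jhamt was called under all 19 alternative settings (log2 change -1.52 to -1.05). In males the call was lost without null male library 1 (-1.31, adjusted p = 0.0577) and without null male library 3 (-1.35, adjusted p = 0.0571), with a range of 1.04e-04 to 0.0577 over the 19 settings. In these bulk samples, fewer cells that make a transcript and less transcript per cell cannot be told apart. Akh, the hormone gene of the corpora cardiaca that adjoin the corpus allatum, had 3 to 8 counts in wild-type libraries and 3 to 19 in null libraries. How much of the corpus allatum these heads held was not tested. The 4 neurosecretory markers, Akh among them, summed to 54.0 to 58.3 CPM in wild-type females and 90.4 to 132 CPM in null females, and to 52.2 to 53.8 and 71.4 to 76.6 CPM in males. Their sum was thus higher in the groups where jhamt was lower, and its part in the result was not tested.

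The epoxide hydrolase genes were higher in null females, together and by a like amount. Jheh2, the most abundant, had 126, 104 and 97.7 CPM in wild-type females and 206, 158 and 155 CPM in null females. Jheh1 rose from 72.1 ± 12.4 to 110.4 ± 14.04 CPM (n = 3 each), and Jheh3 from 15.7 ± 1.24 to 23.9 ± 5.67 CPM. For each of these genes the wild-type and null female libraries did not overlap. The log2 changes were 0.61 (SE 0.16, edgeR adjusted p = 0.0135) for Jheh1, 0.66 (SE 0.15, adjusted p = 0.00787) for Jheh2 and 0.60 (SE 0.16, adjusted p = 0.0155) for Jheh3, or 1.53-, 1.59- and 1.52-fold. Null female library 1 was the highest library for all 3 genes. Without it, Jheh2 was still called (0.51), while Jheh1 (0.49, adjusted p = 0.0523) and Jheh3 (0.38, adjusted p = 0.0567) were not. Jheh1 was also lost without wild-type female library 2 (0.58, adjusted p = 0.0551) or 3 (0.52, adjusted p = 0.0628), and Jheh3 without wild-type female library 3 (0.54, adjusted p = 0.0646). Over the 19 settings the adjusted p ranged from 6.15e-04 to 0.0628 for Jheh1, from 5.76e-04 to 0.0402 for Jheh2 and from 0.0031 to 0.0646 for Jheh3.

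In males none of the epoxide hydrolase genes passed the test. Jheh2 had 121, 124 and 93.6 CPM in wild-type males and 172, 133 and 139.6 CPM in null males. These libraries did not overlap, but the log2 change of 0.40 (SE 0.15) had an edgeR adjusted p of 0.132. Jheh1 was at 81.0 ± 9.85 CPM in wild-type and 99.96 ± 18.9 CPM in null males (log2 change 0.30, SE 0.16, edgeR adjusted p = 0.279, n = 3 each). Jheh3 was at 18.1 ± 2.45 and 20.5 ± 2.59 CPM (log2 change 0.18, SE 0.16, edgeR adjusted p = 0.575). A call in females and none in males does not show that the sexes differ. The female minus male difference was 0.31 (SE 0.22) for Jheh1, 0.27 (SE 0.22) for Jheh2 and 0.43 (SE 0.23) for Jheh3 on the log2 scale, with adjusted p of 0.508, 0.543 and 0.437.

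The esterase gene Jhe was higher in null females and was not called in null males. It had 15.3, 19.3 and 19.6 CPM in wild-type females and 28.2, 23.6 and 21.8 CPM in null females, with no overlap. Jhe rose 1.36-fold (log2 change 0.44, SE 0.14, edgeR adjusted p = 0.0332). This call was among the least firm: it held under 13 of 19 settings, with adjusted p from 0.0216 to 0.124. It was lost without null female library 1 (0.32, adjusted p = 0.124) and without wild-type female library 1 (0.33, adjusted p = 0.112), 2 (0.49, adjusted p = 0.0601) or 3 (0.51, adjusted p = 0.0532). In males Jhe was at 17.4 ± 2.88 CPM in wild-type and 18.6 ± 1.45 CPM in null heads (log2 change 0.10, SE 0.14, edgeR adjusted p = 0.762, n = 3 each). The female minus male difference was 0.34 (SE 0.20, adjusted p = 0.449).

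Fat body, the main metabolic tissue of the fly, is also present in the head. The sum of its markers was higher in null females, where the 4 degradation genes were called, and in null males, where none of these was. The 7 fat body markers summed to 2464 to 3431 CPM in wild-type females and 7959 to 10595 CPM in null females, highest in null female library 1. In males they summed to 2689 to 4021 CPM in wild-type and 4285 to 7490 CPM in null heads. Much of each sum came from apolpp, with 1306 ± 624 CPM in wild-type and 6239 ± 854 CPM in null females. In males apolpp had 1895 ± 778 and 3316 ± 1453 CPM. In each sex 4 of the 7 markers were called higher and 0 lower, and none was at 0. Of all genes tested, 18.2% were called higher in females and 4.89% in males. Midgut markers summed to 4.44 to 7.07 CPM over the wild-type libraries and 11.6 to 35.1 CPM over the null libraries, with 4 of the 6 at no more than 3 counts in any library. Nearly all of this sum was Amy-p, with 4.77 ± 0.554 CPM in wild-type and 16.3 ± 4.36 CPM in null females. Photoreceptor markers summed to 32384 to 36285 CPM in wild-type females and 40675 to 53400 CPM in null females, highest in null female library 1, with 2 of 6 called higher in females and 0 of 6 in males. Of 4 haemocyte markers, 3 were called higher and 1 lower in females, and 1 higher and 1 lower in males. The haemocyte sum was lower in null heads, at 122 to 146 against 239 to 290 CPM in females. This fall was that of Hml alone, from 201 ± 24.3 CPM in wild-type to 19.1 ± 7.95 CPM in null females, while the other haemocyte markers rose. The part of these markers in the changes of Jhe and the Jheh genes was not tested.

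**Figure D2:**
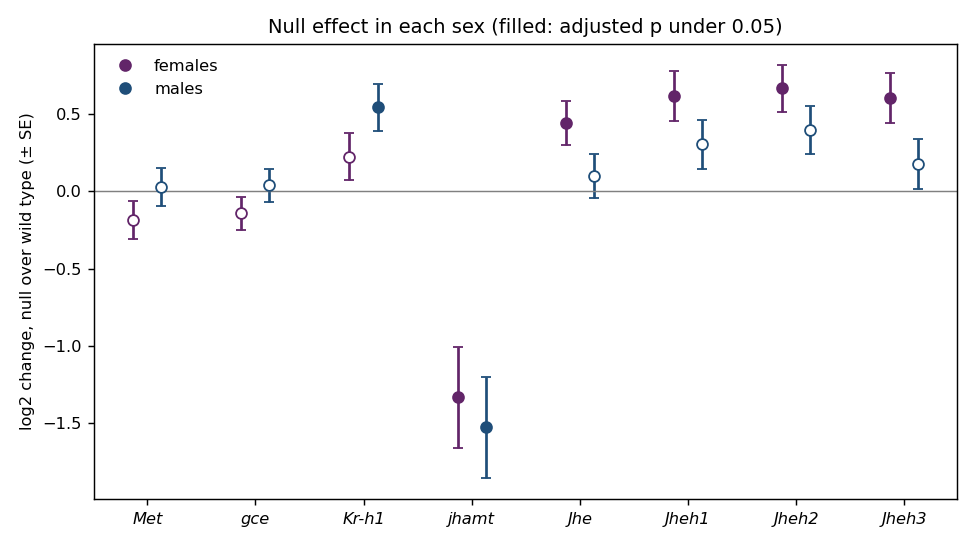
Log2 change of null over wild type (vertical axis) for the 8 genes (horizontal axis) in females and males, with ± SE from edgeR and filled points for an adjusted p under 0.05. The 4 degradation genes are filled in females and open in males, and jhamt is filled and below 0 in both.

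No change of the receptor genes passed the test. Met had 60.2 ± 3.72 CPM in wild-type females, 53.0 ± 10.3 in null females, 52.9 ± 2.40 in wild-type males and 53.9 ± 3.57 in null males (n = 3 each). The SD of null females was widest, with library 1 at 41.1 CPM against 58.2 and 59.6 in the other libraries. For gce the levels were 124 ± 6.21, 113 ± 18.7, 105 ± 4.48 and 107 ± 3.77 CPM in the same order, and null female library 1 was again the lowest at 91.2 CPM. The log2 changes in null flies were -0.18 (SE 0.12) for Met and -0.14 (SE 0.11) for gce in females, and 0.03 (SE 0.12) and 0.04 (SE 0.11) in males. Without null female library 1 the female changes were -0.04 for Met (edgeR adjusted p = 0.726) and -0.02 for gce (adjusted p = 0.845). Per length, the ratio of gce to Met stayed between 1.62 and 1.95 in all 12 libraries, a comparison that library scaling cannot alter.

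Kr-h1, the early target of the receptors, was higher in null males. The libraries held 29.1, 29.8 and 27.6 CPM in wild-type males and 36.7, 43.8 and 45.5 CPM in null males, with no overlap. Kr-h1 rose 1.46-fold (log2 change 0.54, SE 0.15, edgeR adjusted p = 0.0429). This call sat close to the threshold and held under 10 of 19 settings, with log2 changes of 0.48 to 0.63 and adjusted p of 0.00338 to 0.133. It was lost without any 1 of the wild-type male libraries 1, 2 and 3 (adjusted p = 0.110, 0.0910 and 0.116) or the null male libraries 2 and 3 (0.0926 and 0.133). It was lost, too, without wild-type female libraries 2 or 3 (0.0610 and 0.0548) or null female library 3 (0.0526), none of which is a male library. In females Kr-h1 had 29.2, 25.9 and 24.2 CPM in wild-type and 22.6, 36.8 and 33.1 CPM in null heads. Null female library 1 lay below all wild-type female libraries and the other null libraries lay above them. The female log2 change was 0.22 (SE 0.15, edgeR adjusted p = 0.279), and leaving out null female library 1 gave 0.39 with a call (adjusted p = 0.0231), the lowest of 19 settings that ran up to 0.713. The female minus male difference was -0.32 (SE 0.22, adjusted p = 0.484).

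Set against its receptors within each library, Kr-h1 gave ratios that did not overlap between the genotypes in either sex. The ratio was not tested, and Kr-h1 itself was not called in females. The ratio of Kr-h1 to the sum of Met and gce, per length, ran from 0.130 to 0.169 in wild-type females and from 0.180 to 0.211 in null females. In males it ran from 0.184 to 0.199 in wild-type and from 0.235 to 0.297 in null heads. Null female library 1, which was low for Met, gce and Kr-h1 alike, thus fell in with its group. The ratio of Jhe to jhamt per length was 0.468 to 0.589 in wild-type females and 1.47 to 1.99 in null females, and 0.446 to 0.583 and 1.08 to 2.18 in males. Jhe thus stood below jhamt in every wild-type library and above it in every null library. The shares of the epoxide hydrolase genes in their summed level per length stayed narrow in all 12 libraries, at 40.1% to 44.5% for Jheh1, 46.2% to 50.9% for Jheh2 and 7.86% to 9.60% for Jheh3.

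The order of levels per length differed between the genotypes mainly through jhamt. In RPKM, the CPM divided by kilobases of annotated exon, Jheh2, Jheh1 and gce were the highest in all 4 groups. They stood at 56.7, 48.5 and 21.4 in wild-type females and 90.0, 74.3 and 19.4 in null females. Wild-type males had 58.6, 54.5 and 18.0 RPKM of them, and null males 77.1, 67.3 and 18.5 RPKM. The libraries of Jheh2 and Jheh1 overlapped in every group, and those of Jheh1 and gce did not. In both wild-type groups jhamt was 4th, at 17.2 RPKM in females and 16.0 in males, where its libraries (12.25 to 21.98 RPKM) overlapped those of gce above it and Jheh3 below it. In null females it was 7th at 6.85 RPKM and in null males last at 5.56 RPKM, in each case overlapping Kr-h1, its neighbour in the order. Met (10.4 to 11.8 RPKM), Jheh3 (9.98 to 15.2) and Jhe (8.26 to 11.7) filled the middle. Kr-h1 was last in the 3 other groups, at 4.99 to 5.81 RPKM, and stood at 7.92 RPKM in null males.

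**Figure D3:**
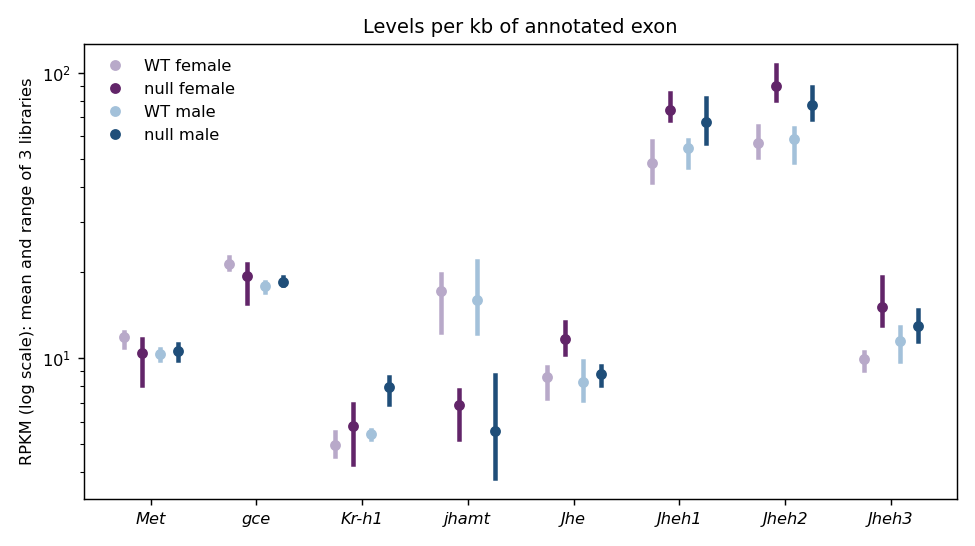
RPKM (vertical axis, log scale) of the 8 genes (horizontal axis) in each group. Points are means and bars the range of 3 libraries. In both null groups jhamt (5.56 and 6.85 RPKM) lies among the lowest genes, while in both wild-type groups (16.0 and 17.2 RPKM) it lies below only Jheh2, Jheh1 and gce.

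Between the sexes, none of the 8 genes was called in wild-type flies, where 3.37% of all genes tested were called. At an unadjusted p under 0.05 the test found 1 member, gce, and 17.3% of all genes, and DESeq2 called 0 members. The X-linked receptor genes were lower in every wild-type male library than in every wild-type female library, by a log2 change of -0.25 (SE 0.11, edgeR adjusted p = 0.256) for gce and -0.19 (SE 0.12, adjusted p = 0.468) for Met. Without null female library 1 the gce difference was -0.26 and called (adjusted p = 0.0244, the lowest of 19 settings that ran up to 0.529). In null flies, where 29.1% of genes were called (13.1% higher and 16.0% lower in males), 1 of 8 members was: Kr-h1 was higher in null males than in null females by 0.44 (SE 0.15, edgeR adjusted p = 0.0463). Its libraries touched ranges, the lowest null male being at 36.7 and the highest null female at 36.8 CPM. The call held under 7 of 19 settings (adjusted p 0.0187 to 0.150) and was lost without null female library 1 (0.28, adjusted p = 0.0975) or 3 (0.50, adjusted p = 0.0538). It was lost without null male library 2 (0.41, adjusted p = 0.107) or 3 (0.38, adjusted p = 0.150) and without any 1 of the 6 wild-type libraries (adjusted p 0.0530 to 0.0632). Jhe was lower in null males than in null females by -0.40 (SE 0.14, edgeR adjusted p = 0.0513), just outside the threshold and with no overlap of libraries (-0.28 without null female library 1, adjusted p = 0.195). Of 5 neuron markers, 4 were called higher and 0 lower in null males than in null females. They summed to 958, 1371 and 1326 CPM in null female libraries 1, 2 and 3 and to 1575 to 1720 CPM in null males. Their part in the Kr-h1 difference was not tested.

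The test of the difference between the null effects called none of the 8 members, and 0.00891% of all genes tested, which is 1 gene. At an unadjusted p under 0.05 it likewise found 0 members, against 11.6% of all genes, the lowest member p being 0.0855 for Jheh3. DESeq2 also called 0 members.

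The authors' deposited table, made with DESeq2 over all samples, called the same 5 members in females and the same 2 in males. In the authors' deposited table the female changes were -1.05 for jhamt (adjusted p = 2.70e-04), 0.39 for Jhe (0.0264), 0.55 for Jheh1 (0.00261), 0.60 for Jheh2 (5.76e-04) and 0.54 for Jheh3 (0.00474), on a log2 scale. In males the authors' deposited table gave -1.17 for jhamt (adjusted p = 1.16e-04) and 0.51 for Kr-h1 (adjusted p = 0.0161).

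Of 54 other genes tied to juvenile hormone, 51 were tested. In females 8 were higher and 9 lower in null heads, and in males 3 were higher and 9 lower. Of all genes tested, 31.8% and 9.93% were called. The 51 genes had a median log2 change of -0.02 (females) and -0.04 (males). The other 3 genes had 0 counts in every library (CG33671), 0 to 6 counts (Jhbp4) or 0 to 1 count (Jhbp10).

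On the list of mevalonate and farnesyl steps, the prenyl diphosphate synthase gene qm was lower in null females (log2 change -0.60, SE 0.17, edgeR adjusted p = 0.0210). Its change was -0.39 without null female library 1, still called, and it no longer passed without wild-type female library 2 (-0.62, adjusted p = 0.0547) or 3 (-0.56, adjusted p = 0.0717). In males qm was at -0.23 (SE 0.17, adjusted p = 0.467), which did not pass the test. Fpps, of the same list, was called in neither sex. It had 14.1 ± 1.25 CPM in wild-type and 13.1 ± 1.85 CPM in null females, and 15.2 ± 1.2 and 14.5 ± 1.86 CPM in males. Among 15 genes that control synthesis, 1 rose and 4 fell in females and 2 rose and 4 fell in males. Of all genes tested, 31.8% were called in females and 9.93% in males. The count in females is near that share and the count in males is above it, on a list written with earlier results of these data known. The genes that fell encode receptors: AstA-R2 for allatostatin A (-0.77 and -0.58 in females and males), AstC-R2 for allatostatin C (-0.50 and -0.33), and Dh44-R1 (-0.64 and -0.58) and Dh44-R2 (-0.29 and -0.32) for diuretic hormone 44. Other receptor genes of this list, AstA-R1, AstC-R1, Dh31-R, InR and tkv, were called between the genotypes in neither sex. The peptide gene AstA was not called either. The genes that rose encode peptides, AstC by 0.60 in females (edgeR adjusted p = 0.00176) and by 0.50 in male heads (adjusted p = 0.00903), and Dh44 by 0.41 in males (adjusted p = 0.0380). In females Dh44 was at 0.30 (adjusted p = 0.0564), and the peptide gene Dh31 was called in neither sex (0.15 and 0.26, adjusted p = 0.246 and 0.108). The calls of AstC and Dh44-R1 held under all 19 settings in each sex, while that of AstC-R2 in males held under 6, Dh44 in males under 11, AstA-R2 in males under 14, and Dh44-R2 under 17 in females and 15 in males. In females the call of qm held under 16.

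Jhedup, the tandem relative of Jhe, moved opposite to Jhe in females. Wild-type female libraries gave 15230, 8140 and 6997 counts of Jhedup, and null female libraries 5458, 5251 and 3660. Male libraries gave 7227, 5664 and 6081 counts when wild-type, then 2265, 1899 and 1302 when null. In CPM the wild-type and null libraries did not overlap in either sex. Jhedup fell by 0.96 on the log2 scale in null females (SE 0.27, edgeR adjusted p = 0.0196) and by 1.55 in null males (SE 0.28, adjusted p = 0.00420). The female call did not hold without wild-type female library 1 (-0.65, adjusted p = 0.0785) or null female library 3 (-0.76, adjusted p = 0.0592), and held under 17 of 19 settings.

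Of 6 receptor partners, 1 was called between the genotypes, in males, where 9.93% of all genes tested were called. Hsp83, the Hsp90 chaperone that keeps Met in a hormone-binding state, rose by 0.61 in null males (SE 0.12, edgeR adjusted p = 0.00735) and was at 0.08 in females (adjusted p = 0.644). Its female minus male difference was -0.53 (SE 0.17, edgeR adjusted p = 0.427). Wild-type males had less Hsp83 than wild-type females (1294 ± 75.0 against 2234 ± 159 CPM, n = 3 each) and null males came to 1969 ± 292 CPM. Fkbp39, an FK506-binding protein, was lower in males than in females of either genotype (log2 difference -0.62 between wild types and -0.68 between nulls).

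Of 13 binding and carrier genes tested, 4 rose and 1 fell in females, and 2 fell in males. Of all genes tested, 31.8% were called in females and 9.93% in males, so these counts are not far from the share of all genes. In females the annotated binding protein genes Jhbp12 (2.12), Jhbp16 (1.08) and Jhbp3 (0.65) and takeout (to, 1.05), a secreted carrier of the head fat body, were higher. Jhbp7 fell in both sexes (-0.55 and -0.63, edgeR adjusted p = 0.00520 and 0.00567), and Jhbp11 in males (-0.70). The calls of Jhbp3 and to held under 11 and 9 of 19 settings, and that of Jhbp11 under 16. Among 9 inducible and target genes of the hormone, 3 rose and 1 fell in females, and 1 fell in males. Of all genes tested, 31.8% and 9.93% were called. JhI-26 fell slightly in both sexes (-0.30 and -0.38), a call that held under 10 and 13 settings. JhI-21, JhI-1, br, Eip75B and Eip93F were called between the genotypes in neither sex. The yolk protein genes Yp1, Yp2 and Yp3, whose transcription in fat body responds to the hormone, rose in females by 2.98, 2.13 and 4.15 on the log2 scale. In males none was called, at -1.62 for Yp1 (edgeR adjusted p = 0.117), -0.92 for Yp2 (adjusted p = 0.181) and 0.38 for Yp3 (adjusted p = 0.652). The female minus male differences of 4.60, 3.05 and 3.77 were not called either (edgeR adjusted p = 0.184, 0.184 and 0.182). They were called under 3, 3 and 4 of 18 settings. The fat body markers given above were higher in null heads of both sexes, and their part in the female rise was not tested.

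**Figure D4:**
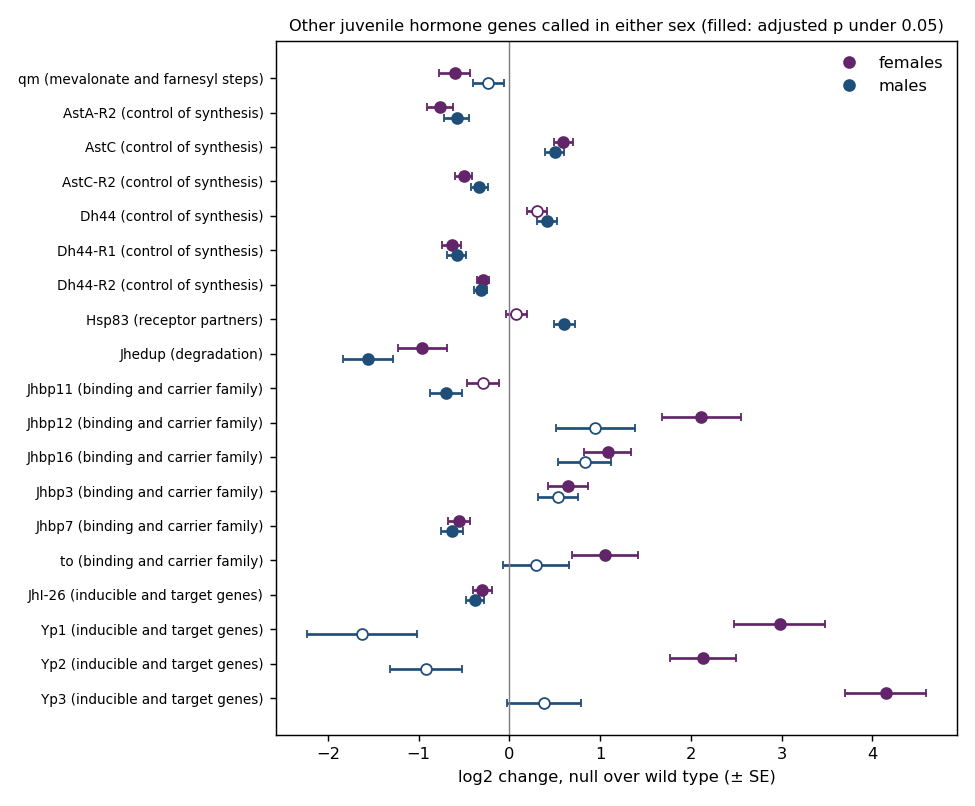
Log2 change of null over wild type with ± SE (horizontal axis) for other juvenile hormone genes called in at least 1 sex (vertical axis, with their list), in females and males. Filled points have an adjusted p under 0.05. Jhedup, Jhbp7 and the allatostatin and Dh44 receptor genes are below 0 in both sexes.

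The genes whose log2 CPM ran most like each member over the 12 libraries were found by Pearson's r, a description of libraries that share groups and scaling. For jhamt these were Kal1 (0.978) and CG16959 (0.973), and for Kr-h1 fax (0.965) and tow (0.963). For Met they were wap (0.925) and Ephrin (0.924), and for gce drk (0.959) and CG1674 (0.923). Jhe was most like CG5867 (0.934), a gene of the binding and carrier list, and Oscillin (0.931). Jheh1 was most like its neighbour Jheh2 (0.963), then CG10799 (0.957). Jheh2 was most like CG10799 (0.990) and Ssb-c31a (0.984), and Jheh3 like Arr1 (0.974), the arrestin gene of photoreceptors, and CG2604 (0.970). The Jheh genes correlated with each other at 0.908 to 0.963, and Met with gce at 0.849.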

How the data were processed

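The authors deposited raw counts per gene for each of the 12 libraries, and a comparison table with log2 fold changes and adjusted p-values. Per the submitters' processing notes, the tools were STAR 2.5.2b-0, featureCounts 1.6.0.3 and DESeq2 2.11.40.1 on build BDGP6. The members and gene lists were chosen with earlier results of these data known.

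Counts were analysed with edgeR 4.0.16 in R 4.3.3. Genes were kept by filterByExpr, libraries scaled by TMM, and all 12 libraries entered 1 quasi-likelihood fit on their 4 groups. P-values were adjusted over the 11223 genes tested, with calls at 0.05. Each SE was derived from the test, as the size of the log2 change over the root of its F statistic. The design text calls the 3 samples of a group biological replicates. Replicates varied by a common biological coefficient of 13.5%. The fit was tested on simulated data.

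Named were all 8 members, other juvenile hormone genes called in any of 5 contrasts, Nab2, and the 2 genes most correlated with each member. Of the genes so named, 1 is counted in the totals but not reported here. RPKM used exonic lengths of Ensembl 115 (BDGP6.54). Alternatives were RLE or total-count scaling, no filter, DESeq2 1.42.0 (with and without moderated changes), a replicate block, only the groups compared, and leaving out each library.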

Additional observations from a re-analysis of the deposited data

How the results depend on the processing

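Of 752 recomputed member changes, 694 kept their direction and their side of the threshold, 34 lost the call, 7 gained it and 17 changed sign. The number of the 8 genes called in females was 2 to 5 when 1 library was left out and 4 to 5 otherwise, and in males 0 to 2 and 1 to 3, with 1 under total-count scaling. It was 0 to 1 between the sexes in wild type and 0 to 1 in null when 1 library was left out. Between null males and null females it was 0 without the filter on low counts, 0 with only the groups compared and 2 with the replicate block. Same-numbered libraries correlated at r = 0.187 to 0.272 for number 1, -0.191 to 0.0844 for number 2 and -0.0778 to 0.310 for number 3, and 6 of 12 libraries correlated best with their own number. Libraries numbered 1 thus deviated together and the rest did not do so throughout, so the block was kept as an alternative. The block brought in Jheh2 in males (0.39, adjusted p = 0.0235) and Jhe between null males and null females (-0.41, adjusted p = 0.0477). Sign changes were all of uncalled values near 0. Total-count scaling gave -0.0043 for Met in males and 0.050 for gce between the sexes in null, and it moved the median of all genes by -0.10 in females. With 1 library left out, Met ran from -0.014 to 0.080 in males and from -0.12 to 0.12 between the sexes in null, where gce ran from -0.19 to 0.0039. The jhamt difference of effects ran from -0.10 to 0.68. Between the sexes in wild type, jhamt ran from -0.40 to 0.056, Jhe from -0.20 to 0.037 and Jheh2 from -0.030 to 0.16. All genes called ran from 2068 to 4058 in females and from 624 to 1852 in males. Total-count scaling ended the calls of Jhe in females (0.32, adjusted p = 0.0579) and of Kr-h1 in males (0.51, adjusted p = 0.0933).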
